A study of Sesamum indicum with 195 samples.

Results

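A set of 93 sesame genes was examined whose response to waterlogging was more positive in roots of Ezhi No.2 (EG) than in roots of ZZM2541 (R2G). The members were chosen on measured values from the 18178 genes with a mean of at least 1 CPM over all samples, out of 20271 genes in the table. The deposited values are named TPM, but genes of all lengths shared one step per library, so they are treated here as CPM, counted reads scaled to a fixed total per sample with no division by gene length. For each genotype the change under waterlogging was the log2(mean CPM + 1) of the waterlogged roots minus that of control roots of the same time. The contrast was the change in EG minus the change in R2G, at 4, 8, 12, 16, 20, 24 and 32 h. A gene became a member if the median of its 7 contrasts was at least 0.8 and if the contrast was above 0 at 6 or more times. A higher contrast can therefore mean a stronger rise in EG or a weaker fall in EG. Under the mirrored rule 130 genes had the opposite contrast.

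Waterlogging fills the air spaces of the soil, and oxygen reaches the root only slowly through water. Roots respond by switching from respiration towards fermentation, by saving energy and by signalling through the gas ethylene, which is trapped in flooded tissue. When the soil drains, oxygen returns and the tissue meets oxidative stress in addition. Many root genes also follow the time of day, so the level of a gene under stress has to be read against a control of the same hour.

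Roots of both genotypes were sampled at the flowering stage from pots that were flooded for 36 h and then drained for 12 h, and from unflooded pots. R2G tolerates waterlogging well and EG is highly susceptible. Each of the 65 conditions had 3 replicates from different pots, which gave 195 samples. In each genotype, 3 samples were taken at 0 h, 30 samples were controls from 4 to 48 h, 45 came from waterlogging at 2 to 36 h and 18 from drainage at 38 to 48 h. A further 3 EG samples were taken at 48 h from plants that the labels call wilting and the methods of the study call dead, and the EG drainage samples of that time came from plants that survived. The genotypes are a single accession each, so a difference between EG and R2G is not tied to tolerance as such. The reference table gives the type and the position of each gene but no product description. Members are therefore named by identifier with no role, and a check of root markers was not made.

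Libraries of the R2G control at 24 h and the EG control at 40 h are compared here with their own group. The lowest correlation between replicates was 0.89 and 0.92 in these conditions. It was lower in EG waterlogging at 28 and 32 h (0.78 and 0.84) and EG at 0 h (0.86). EG drainage at 44 h and R2G waterlogging at 32 h also had lower values (0.87 and 0.87). Single libraries of those conditions are not described here. The replicates of the R2G control at 24 h disagreed, with a median over the members of 5.14, 4.58 and 3.43 on the log2 scale in replicates 1, 2 and 3. By the correlation of deviations from the mean of each gene, over the genes that were not members, replicate 1 was closest to the R2G control at 12 h (0.80), replicate 2 to that at 32 h (0.78) and replicate 3 to that at 20 h (0.63). With the other replicates of their condition the R2G replicates 1, 2 and 3 had correlations of 0.69, 0.72 and 0.39. Which of them is out of place is not settled. In EG, replicate 3 of the control at 40 h had such a correlation of 0.64 with the other replicates of its condition. Replicates 1 and 2 had 0.83 and 0.86. These 2 were also closest to other conditions, the EG control at 16 h and the R2G control at 40 h. The waterlogging times between the times of the rule also stood apart. At 6, 10, 14, 18 and 22 h, 2147 genes lay above the mean of both neighbouring times at all 5 times in both genotypes and 1352 lay below, which is 11.8% and 7.44% of the genes tested. The median over genes of the EG minus R2G difference of this step was 0.01 for all genes and -0.01 for members. The extraction text in the labels counts 126 samples, which is the sum of the controls, 0 h, the waterlogging times of the rule and drainage of surviving plants at 40, 44 and 48 h. The labels give no date or batch, and a separate handling of the other 69 samples was not tested. The worth of 1 read could be read from the steps between low values, which gave depths of 11797236 to 35290179 counted reads per library, so that 1 CPM stood for 11.8 to 35.3 reads. In 5 libraries the depth was at least 28453055 reads, against at most 22790993 in the other 190. Replicates 1 and 2 of the R2G control at 24 h and replicate 3 of the EG control at 40 h were among the 5, and the part of this depth in their values was not tested.

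The members depended on the R2G control at 24 h in part. The largest contrast fell at 24 h in 31 members and at 4 h in 28. At 24 h LOC105168841 was at 1049, 1034 and 4.93 CPM in the 3 R2G controls and at 1.44, 2.30 and 2.57 CPM in the EG controls. LOC105167110 was at 391, 540.1 and 2.06 CPM in the R2G controls of that time, and LOC105179237 at 124, 137 and 0.22 CPM. The contrast of 9.55 of LOC105168841 at 24 h thus rested on replicates 1 and 2. When these 2 libraries were left out, 60 genes met the rule and all 60 were among the 93 members. When replicate 3 was left out instead, 97 genes met it, of which 89 were members. The list also turned over with other libraries and times. Without replicate 1, 2 or 3 of every condition 58, 47 and 61 of the 93 members still met the rule, among 108, 92 and 106 genes. Without 4 h 138 genes met it, with 68 of the members, and without 24 h 105 genes did, with 67. The comparisons with tests below use no sample of the R2G control at 24 h, although all libraries share in the estimate of the spread.

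The values that chose the members are given as a description. The median of the 7 contrasts ran from 0.80 to 2.03 among members, with a middle value of 1.04, and was -0.01 for all genes tested. The contrast was above 0 at all 7 times in 26 members and at 6 times in 67. LOC105175178 had the highest median (2.03), followed by LOC105167130 (1.98), LOC105160926 (1.98), LOC105156117 (1.94), LOC105158276 (1.85), LOC105169044 (1.84), LOC105179237 (1.83), LOC105164305 (1.83), LOC105178884 (1.64) and LOC105167110 (1.62). Just inside the threshold lay LOC105163104 (0.81), LOC105167775 (0.80) and LOC105167362 (0.80), and just outside it LOC105155753 (0.79), LOC105174954 (0.78) and LOC105156632 (0.78). The median threshold alone was passed by 325 genes, of which 232 had a contrast above 0 at fewer than 6 times. In the contrast that the rule used, averaged over the 7 times, limma called 49 of the 93 members against 0.611% of all genes, from which nothing is read.

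The members reached a higher contrast in 3 ways. In 42 members the median change was negative in both genotypes, at -0.84 in EG and -1.85 in R2G for the middle member. These genes fell under waterlogging by less in EG. In 28 members the median change was positive in EG (0.62) and negative in R2G (-0.82). In 23 members it was positive in both genotypes, at 1.34 in EG and 0.34 in R2G. Over all genes the median change was -0.39 in EG and -0.36 in R2G. The sign of a change is thus not a fall or rise against the typical gene. At the times of the rule the levels of control and flooded roots both entered. The genotype difference, EG minus R2G, had a median over members of 0.41 under waterlogging and of -0.46 in the controls of the same times, with 77 members lower in EG than in R2G in control and 75 higher in EG under waterlogging. In the controls at 40, 44 and 48 h, which the rule did not use, this median was -0.06 for members and -0.04 for all genes.

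**Figure D1:**
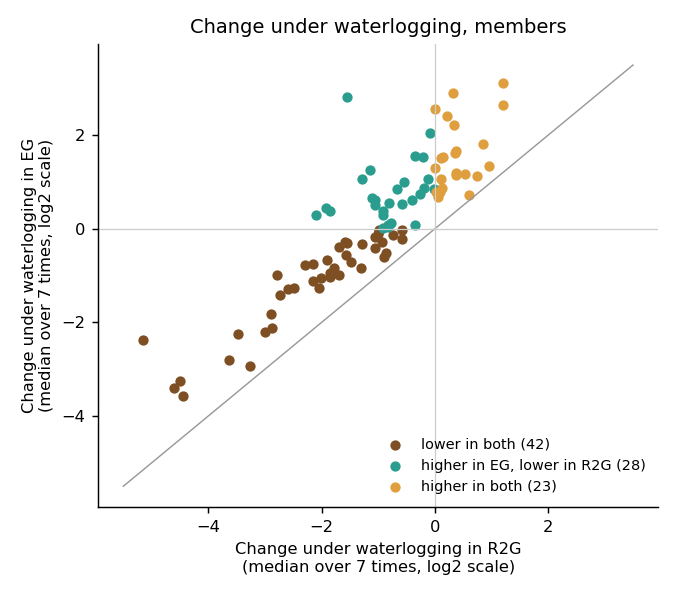
Change under waterlogging in R2G (horizontal axis) and in EG (vertical axis), each the median over 7 times on the log2 scale, for the 93 members, which are coloured by the sign of the 2 changes. All points lie above the line of equal change, and the largest group of 42 members lies below 0 on both axes.

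Over time the contrast was uneven. Its median over members was 1.52 at 4 h, 1.00 at 8 h, 0.95 at 12 h, 0.72 at 16 h, 0.29 at 20 h, 1.30 at 24 h and 1.11 at 32 h. At 20 h it was above 0 in 61 members, fewer than at any other time of the rule, where 83 to 90 members were above 0. The contrast was thus largest at 4 and 24 h. The value at 24 h includes replicates 1 and 2 of the R2G control, which disagreed with replicate 3. At 4 h the median change was 0.90 in EG and -0.51 in R2G, while at 24 h it was 0.29 in EG and -1.96 in R2G.

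**Figure D2:**
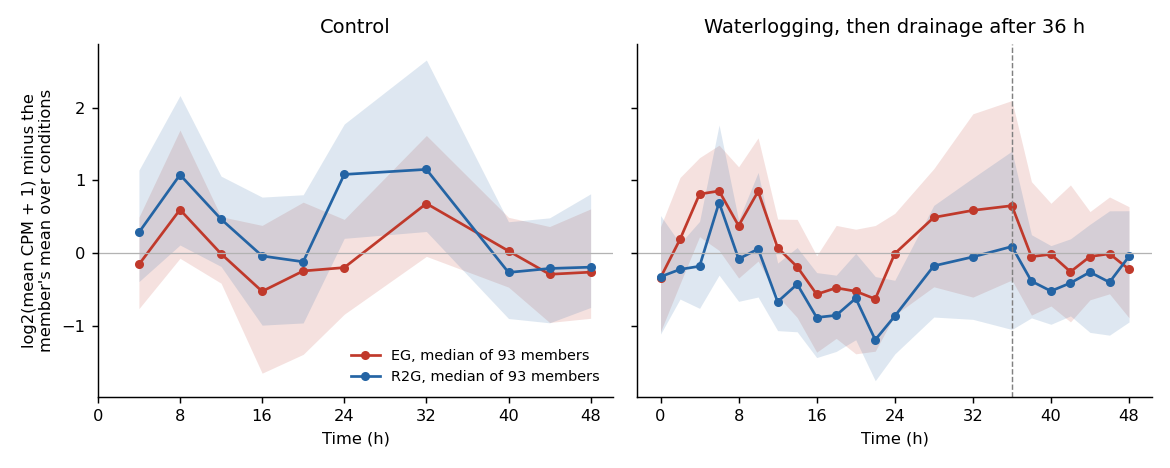
Median of the 93 members (points and lines) and range between quartiles (bands) of the level, log2(mean CPM + 1) minus the mean of the member over all conditions, against time in hours for EG and R2G. The left panel shows controls, where R2G lies highest at 8, 24 and 32 h (1.08, 1.08 and 1.15). The R2G point at 24 h includes replicates 1 and 2, which disagreed with replicate 3. The right panel shows 0 h, waterlogging and drainage, with the dashed line at the start of drainage at 36 h.

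Members swung widely over the day in unflooded roots. In the EG control 47 of 93 members had their highest level at 8 or 32 h, against 26.2% of all genes tested. In the R2G control 41 members did so, against 20.7% of all genes. In EG 28 members were highest at 8 h (12.7% of all genes) and 19 at 32 h (13.6%). In R2G 7 were highest at 8 h (12.1%) and 34 at 32 h (8.61%), so the single highest time fell at 8 h less often than in EG. A rise at 8 h was still seen in both controls. Relative to the mean of each member over all conditions, the median log2 level was 0.28, 1.08 and 0.47 at 4, 8 and 12 h in R2G. In EG it was -0.16, 0.60 and -0.01 at these times. At 32 h it was 1.15 in R2G and 0.68 in EG. Controls at 8 and 32 h were among the samples that chose the members. Between the highest and the lowest control time the median member differed by 2.35 on the log2 scale in EG and by 1.96 in R2G, and the median gene by 0.95 and 0.80. The replicates of members also varied more. Their SD on the log2 scale, as the median over conditions, was 0.37 for the middle member and 0.21 for the middle gene, and 86 of 93 members lay above the latter. The part of these swings and spreads in the choice of the members was not tested.

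A group of members showed this course most clearly. LOC105168841, on linkage group 8 from 15246473 to 15250911 of genome v1.0, had a mean of 879 CPM at 8 h and of 819 CPM at 32 h in the EG control, but of 1.24 CPM at 16 h and 2.11 CPM at 24 h. In the R2G control its means were 807 CPM at 8 h, 1721 CPM at 32 h and 4.29 CPM at 16 h. The genotypes were close at 8 h, while at 16 and 32 h the R2G control mean lay above the EG control mean. At 24 h the R2G mean was 696 CPM. It came from 1049 and 1034 CPM in replicates 1 and 2 and 4.93 CPM in replicate 3, which disagreed. Under waterlogging at 32 and 36 h LOC105168841 reached 1749 and 2120.1 CPM in EG and 589 and 1139.8 CPM in R2G. LOC105167110 followed the same hours, with 249 CPM at 8 h, 1.32 CPM at 16 h and 349 CPM at 32 h in the EG control. At 36 h of waterlogging LOC105167110 was at 1560.4 CPM in EG and at 549.6 CPM in R2G. In the samples that did not choose the members, the EG minus R2G change of LOC105168841 was 0.47 (SE 0.61) and that of LOC105167110 was 0.95 (SE 0.61), and limma called neither (adjusted p = 0.78 and 0.49).

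The first question was whether the contrast held in samples that the rule had not used. The rule left aside waterlogging at 2, 6, 10, 14, 18, 22, 28 and 36 h and the controls at 40, 44 and 48 h. The EG minus R2G difference over these 8 waterlogging times was compared with that over the 3 control times, which are not matched in hour. All flooded samples of this comparison belong to the other 69 samples and all its controls to the 126, so waterlogging and a separate handling of these sets cannot be told apart within a genotype. Both genotypes were sampled in both sets. A gene was called if limma gave a Benjamini-Hochberg adjusted p under 0.05 over all 18178 genes together with a log2 difference of at least 1. Of the 93 members 16 were called higher in EG (17.2%) and 0 lower, while 0.193% of all genes were called higher. Among members 40 were higher and 1 was lower at an unadjusted p under 0.05. With the adjusted p alone, 22 members were higher, against 1.07% of all genes. The difference was above 0 in 79 of 93 members, with a median of 0.50, and in 55.4% of all genes, with a median of 0.03. In whole roots a lower level can mean fewer cells of a type or less RNA per cell, which cannot be told apart here. By the way the rule was met, the calls fell on 8 of the 42 members lower in both genotypes, 5 of the 28 higher in EG and lower in R2G, and 3 of the 23 higher in both. Of the 60 members that met the rule without replicates 1 and 2 of the R2G control at 24 h, 12 were called. The count stayed at 16 without replicate 3 of the EG control at 40 h. Without replicate 3 of all conditions 10 members were called, and with the 0 h samples in place of the controls 6 were called. Limma-voom on the read counts recovered from the steps called 10 members and 55 genes in all, where limma on the log2 values called 16 and 35.

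**Figure D3:**
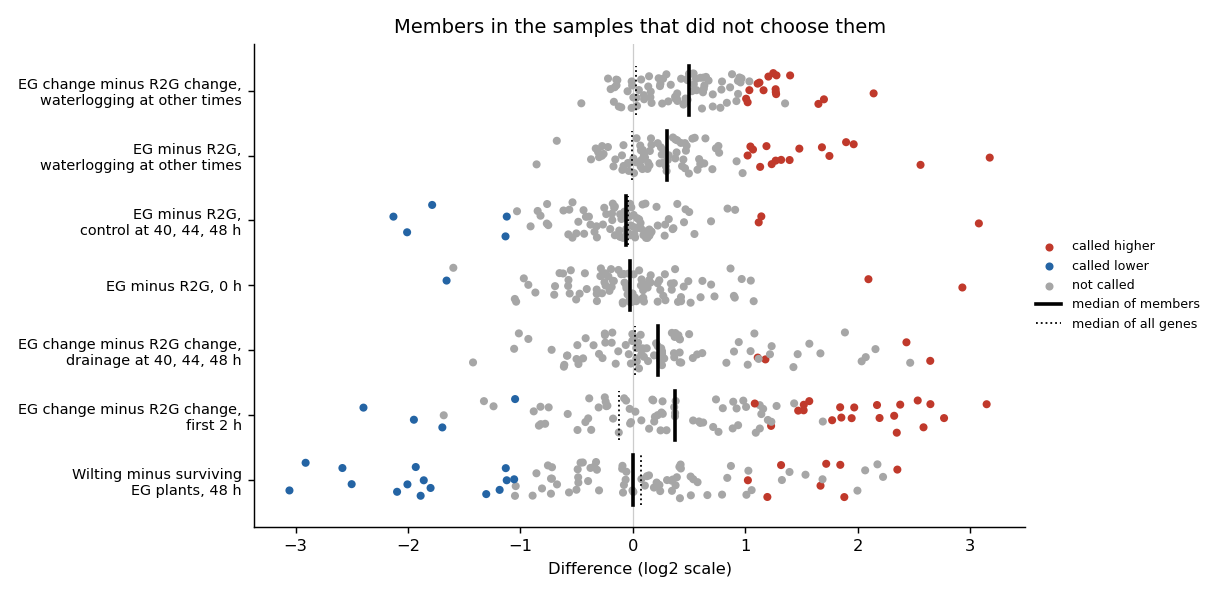
Log2 differences (horizontal axis) of the 93 members in 7 comparisons made with samples that did not choose them. Each point is a member, coloured if called by limma, the thick bar is the median of the members and the dotted bar the median of all 18178 genes. In the first comparison 16 members were called higher and 0 lower.

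LOC105172681, on linkage group 10 from 15387124 to 15388681, separated the genotypes at nearly every time of the flooding. Under waterlogging at the times outside the rule its CPM ran from 7.10 to 25.1 in the 24 EG samples, with a median of 15.5. In the 24 R2G samples it ran from 2.72 to 15.6 with a median of 5.39. In the controls at 40, 44 and 48 h its range was 18.7 to 24.3 CPM in EG and 18.2 to 30.2 CPM in R2G, so the unflooded roots overlapped. The fall in R2G was gradual, from 14.98 CPM at 2 h through 7.97 CPM at 6 h to 3.68 CPM at 36 h, while EG held 13.2 CPM at 36 h. At 7 of the 8 waterlogging times every EG sample lay above every R2G sample. The EG minus R2G change was 1.28 (SE 0.11, limma adjusted p = 6.4e-17), that is 1.19 under waterlogging and -0.09 in control. After drainage R2G was back at 15.4 CPM at 40 h and 28.7 CPM at 44 h, and the EG minus R2G change in drainage of 0.24 was not called (limma adjusted p = 0.57).

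LOC105160014, on linkage group 4 from 4634454 to 4637999, moved in opposite directions. It was named because it was also called in drainage, after its values were seen. In EG its mean rose from 6.54 CPM at 2 h of waterlogging to 12.0 CPM at 14 h, 20.2 CPM at 18 h and 24.9 CPM at 36 h. In R2G it went from 5.55 CPM at 2 h to 3.38 CPM at 14 h and 3.29 CPM at 36 h. The controls at 40, 44 and 48 h stayed between 5.79 and 8.14 CPM in EG and between 4.39 and 7.51 CPM in R2G. The EG mean was 9.81 CPM at 10 h and 7.04 CPM at 12 h of waterlogging, and among all EG controls the highest mean was 9.77 CPM at 16 h. From 14 h on the EG means at the times given lay above these controls, and the EG minus R2G change was 1.25 (SE 0.11, limma adjusted p = 1.7e-16). The call held in all 13 alternatives, with differences from 1.15 to 1.61.

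LOC105158098, on linkage group 3 from 10142909 to 10144810, was nearly silent in R2G. Its R2G values reached at most 0.75 CPM in any of the 96 samples, with a median of 0.07 CPM, a level of about 1 read. The EG samples under waterlogging at the times outside the rule ran from 1.78 to 12.0 CPM with a median of 6.49, and the EG controls at 40, 44 and 48 h from 0.28 to 1.92 CPM. EG samples lay above all R2G samples of the same time at 8 of 8 waterlogging times. As a difference of changes, EG minus R2G, this was 1.65 (SE 0.13, limma adjusted p = 1.9e-19) and was called in all 13 alternatives. Its EG level alternated between neighbouring times, with 6.72 CPM at 10 h, 1.51 CPM at 12 h, 5.95 CPM at 14 h and 1.85 CPM at 16 h. The times between those of the rule lay 1.38 above their neighbours in EG on the log2 scale and 0.07 in R2G, so the size of the difference depends on the times taken.

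LOC105156117, on linkage group 1 from 1654456 to 1658369, had the largest difference of the called members and is a gene that fell in both genotypes. In the controls at 40, 44 and 48 h it ran from 10.5 to 97.3 CPM in EG and from 24.2 to 115 CPM in R2G. Under waterlogging at the times outside the rule the range was 0 to 33.4 CPM in EG, with a median of 3.39, and 0.06 to 3.05 CPM in R2G, with a median of 0.56. R2G was low by 2 h, at 0.55, 2.44 and 0.45 CPM in the 3 replicates, when EG was at 33.4, 3.72 and 10.1 CPM. By 36 h EG was as low as R2G, with means of 0.33 and 0.57 CPM. The change in EG exceeded that in R2G by 2.14 (SE 0.45, limma adjusted p = 0.0013), and the adjusted p over the alternatives ran from 0.00051 to 0.34, the highest with 0 h in place of the controls. Without replicate 3 it was 0.14.

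LOC105163321, on linkage group 6 from 1998483 to 2001584, resembled it at a lower level. Its controls at 40, 44 and 48 h ran from 7.74 to 44.9 CPM in EG and from 18.0 to 51.9 CPM in R2G, and its median under waterlogging was 1.12 CPM in EG and 0.66 CPM in R2G. At 2 h of waterlogging EG was at 26.0, 9.77 and 22.3 CPM and R2G at 2.25, 5.04 and 1.58 CPM. From 12 h on the means of both genotypes lay between 0.37 and 1.58 CPM under waterlogging. Between the genotypes the changes differed, EG minus R2G, by 1.40 (SE 0.33, limma adjusted p = 0.0062), with an adjusted p of 0.067 without replicate 1 and 0.26 without replicate 3, in a range of 0.0019 to 0.3 over the alternatives. By limma-voom it was 0.098.

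For other called members the difference lay in the controls. LOC105158204, on linkage group 3 from 12941142 to 12943069, had a lower mean in EG than in R2G in every condition. Its controls at 40, 44 and 48 h ran from 0.90 to 2.31 CPM in EG and from 6.45 to 17.3 CPM in R2G and did not overlap. Under waterlogging its median was 0.39 CPM in EG and 1.89 CPM in R2G. The positive EG minus R2G change of 1.27 (SE 0.23, limma adjusted p = 7.7e-05) is thus the remainder of -0.86 under waterlogging and -2.13 in control. With 0 h in place of the controls it was -0.65, and both genotypes were at or below 1.28 CPM at 0 h. By limma-voom it was 0.71 and not called (adjusted p = 0.49). LOC105175178, on linkage group 12 from 2375581 to 2378941, had similar medians in both genotypes under waterlogging, 82.0 CPM in EG and 75.6 CPM in R2G. Its controls at 40, 44 and 48 h had medians of 12.5 CPM in EG and 34.3 CPM in R2G. The EG minus R2G change of 1.20 (SE 0.26, limma adjusted p = 0.0017) fell to 0.00 with 0 h in place of the controls, and the adjusted p without replicate 2 was 0.091.

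LOC105164435, on linkage group 1 from 12284523 to 12285768, had a low EG control at the times compared and was high late in the flooding. Its controls at 40, 44 and 48 h had medians of 2.29 CPM in EG and 12.3 CPM in R2G. In EG the mean rose from 28.4 CPM at 28 h to 446 CPM at 32 h and 603 CPM at 36 h of waterlogging, and in R2G from 13.8 to 94.5 and 189 CPM. The controls at 32 h were high as well and alike, with means of 111 CPM in EG and 108 CPM in R2G. Over the times outside the rule the samples overlapped widely, from 1.03 to 910.4 CPM in EG and from 5.13 to 307 CPM in R2G. As a difference of changes, EG minus R2G, this was 1.70 (SE 0.48, limma adjusted p = 0.036), and the adjusted p was 0.34 without replicate 2 and 0.23 without replicate 3, in a range of 0.0082 to 0.4. By limma-voom it was 0.16. At 2, 6, 14, 18 and 22 h of waterlogging EG lay below R2G on the log2 scale (-1.52, -1.35, -1.21, -0.73 and -0.26). At 10, 28 and 36 h EG lay above R2G (0.38, 0.64 and 1.58). The controls differed by -1.05, -2.74 and -2.23 at 40, 44 and 48 h, so the positive change rests on them.

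**Figure D4:**
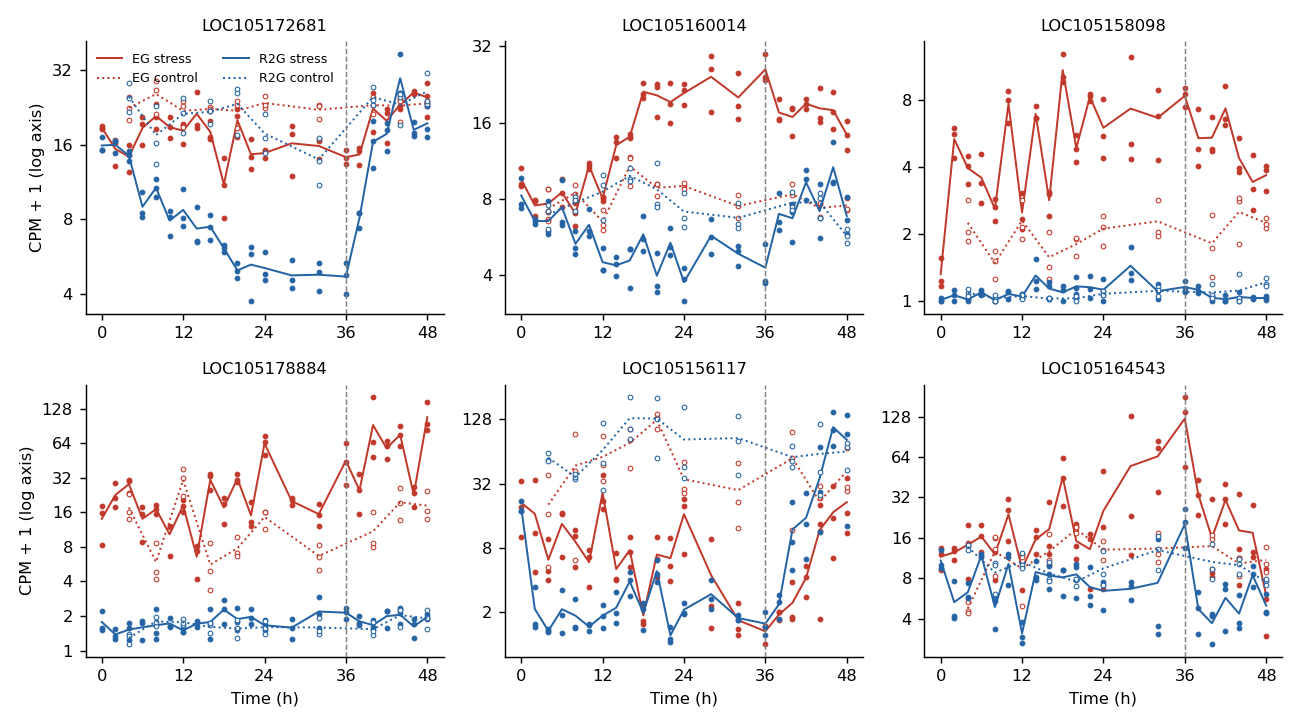
CPM + 1 on a log axis against time for 6 members, with a point for each sample and lines through the means of the 3 replicates. Filled points and full lines are 0 h, waterlogging and drainage, open points and dotted lines are controls, EG is red and R2G blue, and drainage starts at the dashed line at 36 h. In LOC105172681 R2G fell to 3.68 CPM at 36 h while EG held 13.2 CPM.

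The genotypes were also compared directly, within each treatment. Over the 8 waterlogging times outside the rule 16 members were called higher in EG by limma (0.616% of all genes) and 0 lower, with 43 higher and 6 lower at an unadjusted p under 0.05. These waterlogging samples are those of the first comparison. The median difference was 0.30 for members and -0.01 for all genes. By time it was lowest at 28 h (0.01, with 47 of 93 members above 0) and highest at 36 h (0.57, with 68 above 0). In the controls at 40, 44 and 48 h 3 members were called higher in EG (0.402% of all genes) and 5 lower (0.303%). The 3 higher were LOC105178884 (3.07), LOC105162172 (1.14) and LOC105156978 (1.12), and the 5 lower were LOC105158204 (-2.13), LOC105164435 (-2.01), LOC105179242 (-1.79), LOC105175178 (-1.13) and LOC105168571 (-1.12). At 0 h, with 3 samples in each genotype, 2 members were called higher in EG (0.352% of all genes) and 1 lower (0.479%). These were LOC105178884 (2.93), LOC105156978 (2.09) and LOC105179242 (-1.66). LOC105162172, LOC105156978, LOC105179242 and LOC105168571 were named after their values were seen. Without replicate 1, 2 or 3 in turn, a single member was called higher at 0 h.

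The earliest flooded samples were compared with those at 0 h. The change from 0 h to 2 h of waterlogging in EG minus that in R2G was called higher in EG in 21 members by limma (5.24% of all genes) and lower in 4 (6.84%). The 2 times differ in hour, no control at 2 h was used here, and each group had 3 samples. The 0 h samples belong to the 126 and the 2 h samples to the other 69. Flooding, hour and a separate handling of these sets thus cannot be told apart within a genotype. Leaving out replicate 1, 2 or 3 gave 7 to 14 members called higher and 1 to 4 called lower. The median was 0.37 for members and -0.12 for all genes. LOC105163104 was higher in EG at 2 h. It went from 18.7, 43.3 and 19.7 CPM at 0 h to 23.8, 8.73 and 31.4 CPM at 2 h in EG, and from 36.2, 41.8 and 15.2 CPM to 2.66, 5.81 and 2.20 CPM in R2G. The difference was 2.38 (SE 0.68, limma adjusted p = 0.0065), close to those of LOC105163321 (2.77) and LOC105156117 (2.64).

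LOC105175178 was higher at 2 h than at 0 h in both genotypes and more so in EG. From 0.63, 1.37 and 0.95 CPM at 0 h it reached 142, 163 and 149 CPM at 2 h in EG, and from 1.11, 0.36 and 1.25 CPM it reached 37.7, 54.2 and 29.8 CPM in R2G. The unflooded controls at 4 h had means of 21.1 CPM in EG and 48.5 CPM in R2G, so the R2G level at 2 h was no higher than that control. The groups at 2 h did not overlap, with a difference of 1.84 (SE 0.54, limma adjusted p = 0.0081). At 6 h the order was reversed, with means of 63.8 CPM in EG and 136 CPM in R2G. LOC105158098 rose from 0.23, 0.56 and 0.17 CPM to 3.40, 4.63 and 5.03 CPM in EG, a difference of 1.94 (SE 0.28, limma adjusted p = 1.7e-07), while R2G stayed at or below 0.13 CPM. Among the 4 members called lower were LOC105155833 (-2.40) and LOC105170469 (-1.05). The others, LOC105157448 (-1.95) and LOC105159576 (-1.69), were named after their values were seen. LOC105155833, on linkage group 2 from 11639557 to 11640224, went from 132, 155 and 85.3 CPM to 475, 525 and 156 CPM in EG and from 51.6, 66.3 and 56.4 CPM to 849, 1044 and 728 CPM in R2G. Its unflooded controls at 4 h had means of 674 CPM in EG and 350.1 CPM in R2G, so the EG level at 2 h lay below that control.

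The 5 members with the highest CPM under waterlogging in EG outside the rule were not called there. LOC105155833 had a median of 675 CPM in EG and 754 CPM in R2G over those times, and LOC105160941 had 646 CPM in EG and 644 CPM in R2G. LOC105170469 had 342 CPM in EG and 511 CPM in R2G. The EG minus R2G changes of these 3 members were 0.30, -0.20 and -0.46, and limma called none of them (adjusted p = 0.75, 0.84 and 0.18). The other 2 lay higher in EG, LOC105168841 with a median of 97.8 CPM against 92.4 CPM and LOC105167109 with 72.6 CPM against 56.4 CPM, and the change of LOC105167109 was 0.62 (limma adjusted p = 0.65). LOC105160941 was far above its controls in both genotypes, which had medians of 37.5 CPM in EG and 37.9 CPM in R2G at 40, 44 and 48 h. These controls are not matched in hour, and waterlogging and a separate handling of the samples cannot be told apart here. The times between those of the rule lay 1.94 above their neighbours on the log2 scale in both genotypes. In drainage the medians of LOC105160941 were 20.6 CPM in EG and 18.4 CPM in R2G.

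The next question was whether the contrast outlasted the flooding. The drained roots at 40, 44 and 48 h had controls of the same hours, which are the controls of the first comparison, and all these samples belong to the 126. The EG minus R2G change in drainage was called higher in EG by limma in 4 members (0.088% of all genes) and lower in 0, with 23 higher and 6 lower at an unadjusted p under 0.05. Its median was 0.22 for members and 0.02 for all genes. All 4 members also met the rule without replicates 1 and 2 of the R2G control at 24 h. The count was 2 without 40 h or without 44 h, 7 without replicate 3 of the EG control at 40 h, and 2 to 9 when each replicate was left out. The 42 members that fell in both genotypes had a median of 0.01 and 0 calls, while the 28 that rose in EG and fell in R2G had a median of 0.92 and 3 calls. The difference between these groups was not tested.

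LOC105178884 had the clearest change in drainage. It lies from 450790 to 456894 on a sequence that the table places on no linkage group. It was the single member whose EG and R2G samples did not overlap over all conditions. The share of all genes without such an overlap was not counted. LOC105178884 had 2.37 to 161 CPM in 99 EG samples and 0.13 to 1.95 CPM in 96 R2G samples. In EG it ran from 7.001 to 24.97 CPM in the controls at 40, 44 and 48 h, with a median of 15.2, and from 47.2 to 161 CPM in drainage, with a median of 82.5. In R2G both groups stayed at or below 1.33 CPM. The EG change exceeded the R2G change by 2.43 (SE 0.23, limma adjusted p = 1.5e-14), a difference called in all 13 alternatives. Under waterlogging outside the rule the change was 0.10 and was not called (limma adjusted p = 0.87), and EG had a median of 16.9 CPM there. Its EG level was uneven over time, with 62.6 CPM at 24 h, 19.1 CPM at 28 h and 44.1 CPM at 36 h of waterlogging.

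The other 3 members called in drainage had been called in the first comparison as well, which shares these controls. LOC105160014 ran from 11.5 to 20.8 CPM in drained EG roots and from 5.79 to 8.14 CPM in their controls, without overlap, and from 4.40 to 8.15 CPM in drained R2G roots. Its EG minus R2G change was 1.11 (SE 0.14, limma adjusted p = 3.4e-09), and 0.95 without replicate 1. LOC105158098 ran from 2.14 to 5.74 CPM in drained EG roots and from 0.28 to 1.92 CPM in their controls, a change of 1.18 (SE 0.16, limma adjusted p = 9.5e-08) against R2G. LOC105164435 fell from a mean of 129.8 CPM at 38 h to 40.2 CPM at 40 h and 3.22 CPM at 48 h in EG, and from 36.2 to 7.99 and 5.50 CPM in R2G. Its change of 2.64 (SE 0.57) had a limma adjusted p of 0.0076, and of 0.14 by limma-voom. The limma adjusted p was 0.11 without replicate 1 and 0.71 without replicate 2. The EG minus R2G difference in drainage was 1.97, 0.49 and -0.56 at 40, 44 and 48 h. In control it was -1.05, -2.74 and -2.23, so the low EG controls made up much of the change.

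**Figure D5:**
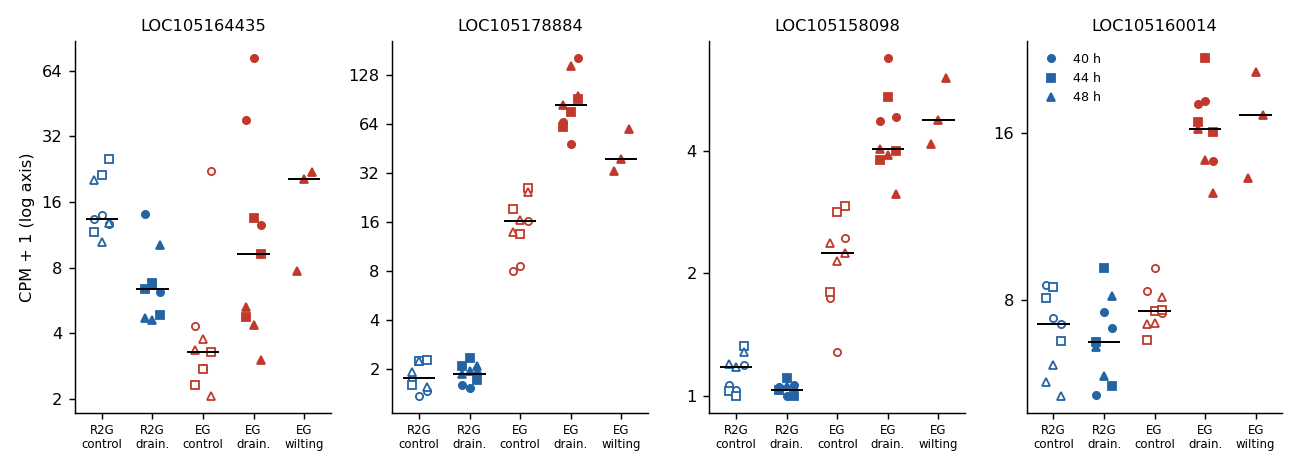
CPM + 1 on a log axis in each sample of control and drainage at 40, 44 and 48 h (circles, squares and triangles) for the 4 members called in drainage, with the wilting EG plants at 48 h. Open symbols are controls, filled symbols are drained or wilting plants, and black bars are medians of the samples shown. LOC105178884 has a median of 82.5 CPM in drained EG roots and of 15.2 CPM in their controls.

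In the wilting EG plants at 48 h members moved both ways against the surviving plants. The wilting samples belong to the other 69 and the surviving ones to the 126. Wilting and a separate handling of these sets cannot be told apart here. With 3 samples in each group 8 members were called higher by limma (2.36% of all genes) and 15 lower (2.67%). Leaving out replicate 1, 2 or 3 gave 0 to 19 members called higher and 2 to 17 called lower, and with only these 6 samples in the model 1 was higher and 3 lower. Several members that had fallen under waterlogging in both genotypes were lower in wilting plants. LOC105163104 was at 9.37, 7.34 and 3.32 CPM in wilting plants and at 26.1, 51.4 and 46.8 CPM in surviving plants, a difference of -2.50 (SE 0.48, limma adjusted p = 0.00015). LOC105156117 was at 1.00, 2.77 and 3.16 CPM against 10.0, 15.8 and 35.5 CPM, and LOC105163321 at 0.40, 0.34 and 1.81 CPM against 3.85, 7.18 and 9.39 CPM. LOC105178884 was at 31.7, 38.2 and 58.3 CPM in wilting plants, below the 82.5, 144 and 93.5 CPM of surviving plants and above its control range. LOC105164543 was higher in wilting plants, at 7.92, 23.4 and 24.9 CPM against 8.33, 4.64 and 2.01 CPM, with an overlap in replicate 1. Its difference was 1.72 (SE 0.47, limma adjusted p = 0.0064).

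All members were protein-coding, and 89 lay on a linkage group of genome v1.0. The median annotated length was 2956 bases for members and 3615 for all genes tested. Linkage group 6 held 18 members of 1976 tested genes and linkage group 3 held 14 of 1878. In 2 places a member lay next to another member. On linkage group 6 LOC105164543 (from 15750874 to 15763701) was followed by LOC105165024 (from 15763836 to 15765530). Under waterlogging at the times outside the rule LOC105164543 had a median of 16.8 CPM in EG and 7.73 CPM in R2G, and LOC105165024 of 82.8 and 25.7 CPM. Their EG minus R2G differences under waterlogging were 1.48 (SE 0.16, limma adjusted p = 1.4e-13) and 1.75 (SE 0.21, limma adjusted p = 7.5e-12). Both were highest at 36 h in EG, with means of 123 and 424 CPM, against 19.3 and 87.7 CPM in R2G. The change of LOC105164543 against the controls was 1.16 in the first comparison and was called in 5 of 13 alternatives, with limma adjusted p from 0.025 to 0.29. The genes beside them, LOC105164542 and LOC105164544, had median contrasts of 0.05 and 0.01. As only 134 bases part the members of this pair, reads from one transcript could be counted on the other. Values with a fraction of a read occurred in 53 and 58 of 195 samples for these 2 members. Among all members this number ran from 5 to 186. Such values occurred in 18176 of the 18178 genes tested, and whether this pair shares reads was not tested.

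On linkage group 7 LOC105167109 (from 11170575 to 11171327) and LOC105167110 (from 11172819 to 11173600) lay beside LOC105167108, LOC105167107 and LOC105167111, whose median contrasts were -0.38, 0.68 and 0.60. The 2 members followed the same hours, with 194 and 249 CPM at 8 h and 1.43 and 1.32 CPM at 16 h in the EG control. LOC105167109 reached 2250.1 CPM at 36 h of waterlogging in EG and 855 CPM in R2G. In drainage their EG minus R2G changes were 2.16 and 2.46, above those of most members, yet limma did not call them (adjusted p = 0.16 and 0.13), and single EG samples ran from 11.0 to 483 CPM in LOC105167109. Values with a fraction of a read occurred in 136 and 116 of 195 samples for LOC105167109 and LOC105167110. In 28 of the 93 members they occurred in over 0.5 of the samples. Whether these neighbours share reads was not tested.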

How the data were processed

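Roots of EG and R2G were profiled by RNA sequencing. The authors checked reads with FastQC, trimmed them with Trimmomatic 0.32, aligned them by STAR to the v1.0 assembly of sesame, took uniquely placed reads for the gene counts and deposited the values under the name TPM. The deposited values behave as CPM. In every library 100% of the values below 100 CPM lay on hundredths of one step, and of the values below 3 CPM a median of 89.9%, 90.5% and 88.0% were whole steps (within 0.01 of a read) for short, middle and long genes, in classes of equal size by annotated length. Of all values a median of 69.1% were whole, so some reads were counted in fractions, although the methods name uniquely matched reads. The CPM of a sample summed to 999096 to 999827. Values divided by the step gave read counts, which limma-voom used as an alternative chosen after seeing the data. The extraction text in the labels counts 126 samples. All 195 columns matched a sample by name.

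The members and the lists were chosen with earlier results of these data known. The rule was applied to the means of the 3 replicates. Linear models on log2(CPM + 1) were fitted by limma 3.58.1 under R 4.3.3, with a mean-variance trend in its empirical Bayes step, the 65 conditions as groups and all 195 samples, over 18178 genes, and Benjamini-Hochberg adjustment over all of them. A pseudocount of 1 understates the change of genes with low CPM. Named genes were the 10 members with the highest median contrast, 3 genes on each side of the threshold, the 6 called members with the largest difference in the first comparison, the 5 with the highest CPM in flooded EG roots outside the rule, the largest called changes in drainage and members next to another member. Other genes are marked where they appear. Tables and figures were made with Python 3.11.15, pandas 2.3.3, numpy 2.4.6 and matplotlib 3.10.9.

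The procedure was tested on simulated data with 200 genes changed by 2 on the log2 scale, a larger change than most reported here. Limma recovered 200 with 2 false calls for the first comparison, 198 with 1 for drainage, 186 with 4 for the first 2 h and 193 with 4 for wilting plants. Limma-voom recovered 200 with 0 for the first comparison and 173 with 11 for the first 2 h. Identifiers and positions come from the RefSeq table of S_indicum_v1.0, in which 20271 of 20271 identifiers were found. Promoter and protein sequences were not used here. The replicate numbers of EG and R2G were not used as pairs in the main fit. Of 96 same-numbered pairs 34 had a correlation of deviations over 0.1. Alternatives were another pseudocount, no filter, median-ratio scaling, each replicate left out, a replicate block, fewer samples in the model, 0 h as control, no threshold on the log2 difference, and single times or libraries left out.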

Additional observations from a re-analysis of the deposited data

Results flagged for a closer look

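Effects of the same contrast that differed between EG and R2G by an interaction test in limma are listed here with their log2 differences. At the waterlogging times outside the rule 16 members (17.2%) changed more positively in EG against the controls at 40, 44 and 48 h. Of all genes 0.193% did so. The named members were LOC105156117 (2.14), LOC105164435 (1.70), LOC105158098 (1.65), LOC105163321 (1.40), LOC105172681 (1.28), LOC105158204 (1.27), LOC105160014 (1.25), LOC105175178 (1.20) and LOC105164543 (1.16). In drainage 4 members (4.3%) changed more positively in EG, against 0.088% of all genes. They were LOC105164435 (2.64), LOC105178884 (2.43), LOC105158098 (1.18) and LOC105160014 (1.11). LOC105164543 was called in 5 and LOC105164435 in 6 of 13 alternatives. These comparisons share their controls.

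The first 2 h of waterlogging were compared with 0 h and no control of the same hour. The 0 h samples belong to the 126 and the 2 h samples to the other 69. Here 21 members (22.6%) changed more positively in EG, against 5.24% of all genes, and 4 (4.3%) more negatively, against 6.84%. The named ones were LOC105163321 (2.77), LOC105156117 (2.64), LOC105163104 (2.38), LOC105167130 (2.19), LOC105158098 (1.94), LOC105175178 (1.84), LOC105160926 (1.77), LOC105178884 (1.08), LOC105170469 (-1.05) and LOC105155833 (-2.40). Each group held 3 samples here, and no group was large enough for a check of single outlying samples.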

How the results depend on the processing

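Over the alternatives, 106 of 141 counts stayed within 1.5 times the value reported, and 634 of 676 differences of named genes kept their direction and their side of the threshold. Of the rest 34 lost the call, 7 gained it and 1 reversed. The reversed one was LOC105158204 in the first comparison, at -0.65 with 0 h in place of the controls, under which 6 members were called in place of 16. Waterlogging at 14, 18 and 22 h alone and the omission of 28 h were chosen after seeing the data, as were the omission of 24, 40, 44 or 48 h and of single libraries, and limma-voom on the recovered read counts. By limma-voom 10 members were called in the first comparison and 5 were higher in control.

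Leaving out each replicate gave 10 to 16 members in the first comparison (10 without replicate 3), 13 to 22 between the genotypes under waterlogging, 2 to 3 higher and 3 to 6 lower in control, 1 to 1 higher and 0 to 1 lower at 0 h, 2 to 9 in drainage, 7 to 14 higher and 1 to 4 lower in the first 2 h, 0 to 19 higher and 2 to 17 lower in wilting plants, and 33 to 47 in the contrast of the rule. The number of members was 92 to 108 in this way. It was 60 without replicates 1 and 2 of the R2G control at 24 h, and 151 with a pseudocount of 0.1, of which 83 were among the 93. Of the 93 members 47 to 61 still met the rule when each replicate was left out of all conditions. In drainage 2 members were called without 40 h, 2 without 44 h and 7 without replicate 3 of the EG control at 40 h. With no threshold on the log2 difference the counts were 36 under waterlogging, 6 higher and 10 lower in control, and 86 in the contrast of the rule. With a pseudocount of 0.1, 5 were higher in control and 4 at 0 h. With only the compared samples in the model, 2 were lower in the first 2 h, and 1 was higher and 3 were lower in wilting plants, of which 3 were higher under median-ratio scaling. Apart from the settings whose construction removes samples, the cause of these shifts was not tested.

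A replicate block left 16 members in the first comparison, 4 in drainage and 21 in the first 2 h, and moved the members higher in wilting plants from 8 to 7. The same numbers in EG and R2G marked little shared deviation, with a mean correlation of 0.02 for same numbers and -0.01 for others. The methods of the study describe randomized blocks with 3 replicates. These correlations cannot show whether equal numbers mark a block. With 11.8 to 35.3 reads per CPM, levels below 0.1 CPM rest on at most a few reads.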

Other observations

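The courses of 3 members from the 10 with the highest median contrast are given here as values. They cover mostly times that the rule used, so they carry no test. LOC105160926, on linkage group 4 from 13399795 to 13400770, had means in flooded EG roots of 37.7 CPM at 24 h, 203 CPM at 28 h, 1288 CPM at 32 h and 1423 CPM at 36 h. In flooded R2G roots the means were 15.4, 63.6, 166 and 433 CPM. LOC105167130, on linkage group 7 from 11305213 to 11311014, had means of 2.65 CPM at 24 h, 92.0 CPM at 32 h and 103 CPM at 36 h in EG, against 1.48, 19.7 and 39.9 CPM in R2G. In control at 32 h the means of LOC105160926 were 269.7 CPM in EG and 168 CPM in R2G, and those of LOC105167130 were 17.3 and 44.4 CPM.

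LOC105164305, on linkage group 6 from 10376049 to 10376744, was low late in the flooding. In EG its mean was 20.3 CPM at 18 h, 4.10 CPM at 24 h and 0.09 CPM at 32 h, and it was 17.6 CPM at 44 h in drainage. In R2G the means were 10.0, 3.00, 0.98 and 4.14 CPM at these times.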
